A study of Mus musculus with 586 samples.

Results

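The WNT ligands described here are Wnt3, Wnt3a, Wnt8a, Wnt5a, Wnt5b and Wnt2b, which are 6 of the 23361 genes measured. They were chosen by name, with earlier results of these data known, and all 6 have a row in each of the 18 deposited tables. The study profiled C57BL/6 mouse embryos, with no mutation or treatment named in the labels, between E5.5 and E7.5 (days of gestation) with Geo-seq, in which a laser cuts small groups of cells from cryosections so that every RNA library keeps its position. Values were matched for 473 of 586 samples. They come from 18 embryos: 2 at E5.5 (22 libraries), 2 at E6.0 (22), 6 at E6.5 (109), 2 at E7.0 (101) and 6 at E7.5 (219). A library is named by its embryo, its section, counted from the distal tip upwards, and a letter code for the region. The letters were read after the published atlas, because the labels leave them unexplained. A and P stand for the anterior and posterior epiblast and L and R for its lateral parts. EA and EP are the endoderm on the A and P side. M is mesoderm, split at E7.5 into anterior MA and posterior MP, and VE is visceral endoderm. The codes E1, E2, M1 and M2, with 9 libraries each of E7.5 embryo 4, were not interpreted and are in no result for endoderm or mesoderm. All groups share the strain and differ in stage and position. The embryo is the replicate, and each stage rests on different animals.

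WNT proteins are secreted, lipid-modified signals that bind Frizzled receptors. Wnt3, Wnt3a and Wnt8a act mainly through β-catenin, which switches on genes bound by TCF/LEF factors, whereas Wnt5a and Wnt5b are best known for signalling without β-catenin, in cell movement and polarity. In the mouse, Wnt3 is required to form the primitive streak, the posterior site where epiblast cells leave to become mesoderm and endoderm, and Wnt3a acts later, in trunk and tail mesoderm. Wnt2b is better known from later organs.

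On GRCm38 with the GENCODE vM21 annotation, Wnt3 lies at chr11:103774150-103817957 (plus strand) and Wnt3a at chr11:59248033-59290752 (minus strand). Wnt5a lies at chr14:28504750-28527448 (plus strand), Wnt5b at chr6:119432531-119544347 (minus strand) and Wnt2b at chr3:104945272-104961921 (minus strand). Wnt2b overlaps Gm43846 on the same strand, Wnt5b overlaps Fbxl14 and Wnt5a overlaps Gm2670, both on the opposite strand. Whether the authors' counting used strand is not given in the sources used here, so reads of these pairs cannot be told apart. Wnt3 and Wnt3a are close paralogs that exchanged rank in P between E6.5 and E7.5, so the 250 bases before their starts are shown, from RefSeq on GRCm38.p6, 5′ to 3′ on the strand of the gene. The Wnt3 window is chr11:103773925-103774174 on the plus strand, and its last 25 bases lie in the first exon annotated by GENCODE. The Wnt3a window is chr11:59290752-59291001 on the minus strand.
Wnt3: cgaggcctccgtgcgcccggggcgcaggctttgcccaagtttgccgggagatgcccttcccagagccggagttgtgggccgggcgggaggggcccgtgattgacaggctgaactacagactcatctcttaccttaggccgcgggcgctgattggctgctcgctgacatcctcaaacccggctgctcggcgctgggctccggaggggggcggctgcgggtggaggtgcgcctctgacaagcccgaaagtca
Wnt3a: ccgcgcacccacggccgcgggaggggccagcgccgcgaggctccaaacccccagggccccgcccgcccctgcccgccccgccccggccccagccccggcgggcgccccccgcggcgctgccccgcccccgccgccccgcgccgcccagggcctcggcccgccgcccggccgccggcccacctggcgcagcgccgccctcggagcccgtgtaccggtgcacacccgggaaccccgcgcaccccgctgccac
The GC content was 68% in the Wnt3 window and 87.6% in the Wnt3a window, against a median of 52.4% over 32851 promoters. A TCF/LEF word (CTTTG followed by AA, AT, TA or TT, on either strand) and the word GGTGTGA, bound by T-box factors such as T, were absent from both stretches. With the 50 bases after the start added, 16.9% of all promoters held a TCF/LEF word and 3.98% the T-box word. In those longer windows Wnt3 held 1 TCF/LEF word, beginning 19 bases after the start. The third annotated start of Wnt5b held 1, beginning 71 bases before it. These 2 matches are shown within 30 bases, with the word in capitals, at chr11:103774182-103774211 (plus strand) and chr6:119449439-119449468 (minus strand).
Wnt3 site: cctcaagtggaCTTTGTTccaactattggg
Wnt5b site: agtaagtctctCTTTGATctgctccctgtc
The Wnt2b window held neither word, and 212 of the 250 bases before its start lie in exons annotated by GENCODE. RefSeq windows were matched for 4 of the 6 members, which leaves out Wnt5a and Wnt8a. A match is a run of letters and not a shown binding site.

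Some facts of the whole series bear on these values. Rough depth, taken from the FPKM worth of 1 read, ran from 2.11 to 10.6 M reads (1 M = 1000000) as embryo medians, and E6.5 embryos 1 to 4 and E7.5 embryos 1 to 3 were deeper than all others. In 4 libraries 1 small RNA or pseudogene held over 50% of the summed FPKM, and 1 of these is a P library (E7.5 embryo 6, section 1). The streak genes T and Mixl1 were higher in P than in A at E6.5 by 2.43 ± 0.30 and 3.36 ± 0.24 on the log2 scale (moderated SE; adjusted p = 0.000462 and 8.29e-07). Ttr, a visceral endoderm gene, was higher in endoderm than in epiblast by 6.22 ± 0.15 (adjusted p = 1.6e-15). Visceral endoderm markers were also present in the epiblast libraries, and 11 of 12 markers were measured. The median of their summed level over the libraries of an E6.5 embryo ran from 148 to 453 FPKM in A. In P it ran from 131 to 344 FPKM. Ttr alone had medians of 0.601 to 6.22 FPKM in A and 0.503 to 13.9 FPKM in P of these embryos. The table that holds E6.5 embryo 6 carries the stage E6.0 in its name, and the labels, which place the embryo at E6.5, were followed. Without embryo 6, 3 of 6 members were called in P minus A at E6.5 and 3 in the slope along P. In such samples, fewer cells of a type and less RNA per cell cannot be told apart. FPKM is a level per transcript length and per library, and levels of different genes are set side by side on that basis only. Other differences between genes in how their RNA is captured and counted were not corrected here. Ranks and shares between the ligands carry this limit.

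Before E6.5 the ligands were at 0 in many libraries. Wnt3a, Wnt8a and Wnt2b were listed at 0 in all 10 P libraries of E5.5, and Wnt8a in all P libraries of E6.0. The mean Wnt3 level in P of E6.0 was 0.0264 FPKM in embryo 1 and 0.563 FPKM in embryo 2. In A it was higher in both embryos, at 0.16 and 2.12 FPKM, and the highest A library of embryo 2 held 4.87 FPKM. Within sections, P minus A for Wnt3 was -0.142 and -0.951 on the log2 scale, opposite in sign to the later stages. Wnt3 was listed at 0 in the 4 VE libraries of E6.0. Wnt5b at E5.5 was above 0 in 1 of 5 P libraries of each embryo, at 16.1 FPKM in embryo 1 and 1.21 FPKM in embryo 2, and in 1 of 5 A libraries of each, at 5.47 and 6.54 FPKM. A single library stood apart for Wnt5a. The most proximal P library of E6.0 embryo 1 held 15.2 FPKM, while the other 3 did not pass 0.174 FPKM and the 4 of embryo 2 did not pass 0.79 FPKM. No member differed between P and A at E5.5 or E6.0 in limma (Benjamini-Hochberg adjusted over 11461 genes, threshold 0.05), where 15.1% and 0% of all genes tested were called. 3385 and 1526 genes had an unadjusted p under 0.05 at these stages, 0 and 0 of the 6 members among them. Wnt3a and Wnt8a were at 0 in every A and P library of E5.5, and Wnt8a in every one of E6.0. At those stages these members could not be called, so the counts say nothing about them.

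**Figure D1:**
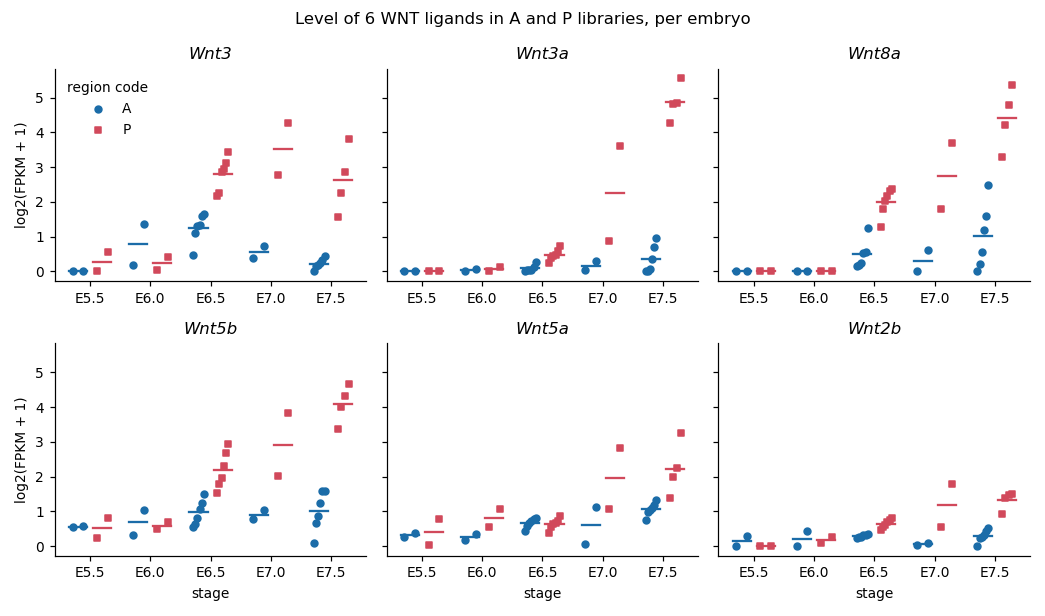
Level of the 6 WNT ligands in A (blue circles) and P (red squares) by stage, as log2(FPKM + 1), where each point is the mean of 1 embryo over its sections and each bar the mean over embryos. For Wnt3, Wnt8a and Wnt5b every P point lies above every A point at E6.5, E7.0 and E7.5, and Wnt3a has its highest P points at E7.5. As means of FPKM instead, Wnt8a at E7.5 was higher in A of embryo 2 than in P of embryo 4.

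At E6.5, when the streak begins to form, Wnt3 was the most abundant of the 6 in posterior epiblast. Its mean level over the 6 embryos ran from 4.74 to 13.3 FPKM in P (median 10.8) and from 0.414 to 3.19 FPKM in A (median 2.82), so the groups did not overlap. Within sections, Wnt3 was higher in P by 1.56 ± 0.26 on the log2(FPKM + 1) scale (moderated SE; adjusted p = 0.00445; higher in 6 of 6 embryos). Wnt8a, a ligand of the posterior epiblast, ran from 1.98 to 6.11 FPKM in P (median 4.78) and from 0.139 to 1.86 FPKM in A (median 0.384). Its groups did not overlap either, and it was higher in P by 1.51 ± 0.20 (adjusted p = 0.00111; 6 of 6 embryos). Wnt5b ran from 2.63 to 8.41 FPKM in P (median 4.21) and from 0.676 to 2.16 FPKM in A (median 1.17). It was higher in P by 1.23 ± 0.21 (adjusted p = 0.00732; 6 of 6 embryos), and lost its call without embryo 2 (adjusted p = 0.051) and with no replicate block (0.0837).
The other 3 members did not pass. Wnt3a had embryo means of 0.222 to 0.91 FPKM in P and 0.0111 to 0.256 FPKM in A, and a difference of 0.38 ± 0.18 (adjusted p = 0.984; 6 of 6 embryos). Wnt2b differed by 0.35 ± 0.11 (adjusted p = 0.333; 6 of 6 embryos) and Wnt5a by -0.02 ± 0.17 (adjusted p = 1). Thus 3 of 6 members were called, each higher in P, where 0.585% of 11461 genes were called higher. The median difference was 0.81 over the members and -0.01 over all genes tested. With the deeper embryos left out, or kept alone, 0 of 6 members were called (alternatives chosen after seeing the data), with Wnt3 differences of 1.44 ± 0.65 (SD, n = 4) in the deeper embryos and 1.82 ± 0.05 (SD, n = 2) in the others. Fitted on E6.5 alone, 5 members were called, Wnt3a and Wnt2b among them. The share of all genes called in that fit is not given here, and 0.585% is not its share.

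Wnt3, Wnt8a and Wnt5b were graded along the posterior side at E6.5, lower at the distal than at the proximal end. The most distal P library of an embryo held Wnt3 at 0.0329 to 2.69 FPKM and the most proximal at 3.86 to 27.2 FPKM, which do not overlap. Wnt3 rose by 3.38 ± 0.35 on the log2 scale from the distal to the proximal end (adjusted p = 4.78e-06, limma over 11628 genes; 6 of 6 embryos). Wnt8a rose by 2.43 ± 0.33 (adjusted p = 0.000162; 6 of 6 embryos) and Wnt5b by 2.28 ± 0.38 (adjusted p = 0.00159; 6 of 6 embryos). Embryo 5 had the smallest Wnt8a slope, 0.61, and its most proximal library held 0.408 FPKM. Wnt3a had a slope of 1.06 ± 0.29 (adjusted p = 0.0719; 6 of 6 embryos), and at a pseudocount of 0.1 one of 3.22 (adjusted p = 0.0033). Wnt2b and Wnt5a had slopes of 0.82 ± 0.25 (adjusted p = 0.109; 6 of 6 embryos) and 0.31 ± 0.40 (adjusted p = 0.658; 4 of 6 embryos). The 3 calls stand beside 1.41% of all genes called higher. The members' median slope was 1.67, against 0.36 over all genes, and the latter fell to 0.09 and 0.03 with libraries scaled to an equal sum or median. Genes called higher and lower numbered 164 and 14, and 111 and 40 with an equal median. Without the deeper embryos 0 members passed.
Wnt3 had a larger mean slope than Wnt8a, Wnt3a and Wnt5b. Its slope exceeded that of Wnt8a by 0.95 ± 0.36 (SD, n = 6; 6 of 6 embryos) and that of Wnt3a by 2.31 ± 0.83 (6 of 6 embryos). Both gave an exact sign-flip permutation p = 0.0312, two-sided, the smallest that 6 embryos allow (adjusted p = 0.0417 over 4 exact tests). It exceeded that of Wnt5b by 1.09 ± 0.90 in 5 of 6 embryos, which did not pass (exact permutation p = 0.0938; adjusted p = 0.0938). Both calls ended at a pseudocount of 0.1, where the difference was 0.10 from Wnt8a and 1.38 from Wnt3a, and with an equal sum, where it was 0.72 and 2.12.
Wnt3 also rose along the anterior side at E6.5, by 2.57 ± 0.40 (adjusted p = 0.00636; 6 of 6 embryos), where 0.0342% of 11680 genes were called higher. The highest A library held 11.1 FPKM, in section 7 of embryo 2. The call was lost without embryo 2, 4 or 6 (adjusted p = 0.0573 to 0.0795). Wnt8a and Wnt5b did not pass in A, at 0.61 ± 0.59 (adjusted p = 1) and 0.74 ± 0.39 (adjusted p = 1).

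**Figure D2:**
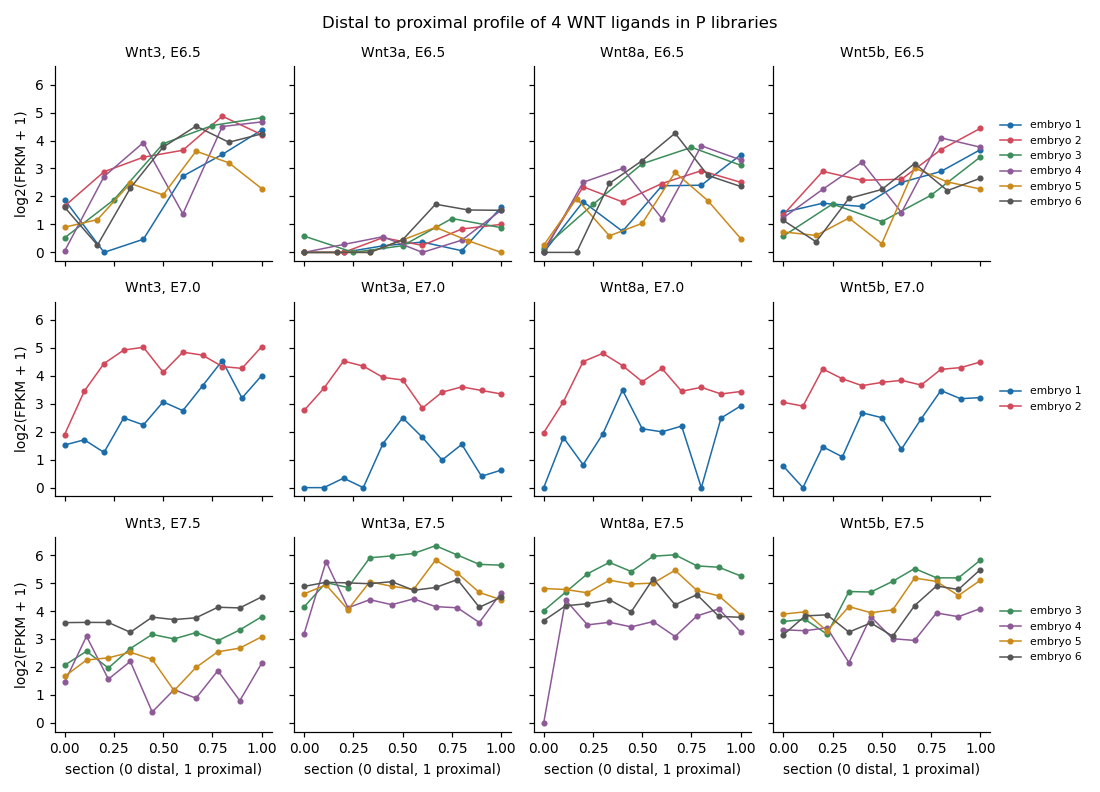
Profile of Wnt3, Wnt3a, Wnt8a and Wnt5b along P at E6.5, E7.0 and E7.5, as log2(FPKM + 1) against the section scaled from 0 at the distal to 1 at the proximal end, with a line per embryo. At E6.5 the Wnt3 lines end higher than they start in all 6 embryos, and at E7.5 the Wnt3a lines are high along the whole side.

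At E7.0, as the streak extends, all 6 members were higher in P than in A in both embryos. Wnt3 had means of 7.64 and 21.2 FPKM in P against 0.819 and 0.354 FPKM in A of embryos 1 and 2, a difference of 2.77 ± 0.44 (adjusted p = 0.00158). Wnt3a had 1.19 and 12 FPKM in P against 0.0321 and 0.258 FPKM in A, a difference of 2.40 ± 0.32 (adjusted p = 0.000301). Wnt8a had 3.39 and 13.6 FPKM in P against 0 and 0.675 FPKM in A, a difference of 1.91 ± 0.36 (adjusted p = 0.0052). The 2 embryos were far apart, embryo 2 being higher in P for each of the 6. The P means cover 11 libraries in each embryo, while the A means and the paired differences rest on 3 sections in embryo 1 and 4 in embryo 2. The section 1 library of A in embryo 2 held T at 437 FPKM, and its part in these values was not tested. Wnt5b had 4.2 and 13.9 FPKM in P against 0.841 and 1.41 FPKM in A, a difference of 2.25 ± 0.37 (adjusted p = 0.00186). Wnt5a had 1.68 and 7.13 FPKM in P against 0.0463 and 1.67 FPKM in A, a difference of 1.19 ± 0.29 (adjusted p = 0.0304). Wnt2b had 0.643 and 3.01 FPKM in P against 0.0243 and 0.0822 FPKM in A, a difference of 0.92 ± 0.20 (adjusted p = 0.0123).
The 6 calls stand beside 1.69% of 11461 genes called higher, and the members' median was 2.08 against 0.05. They rest on a spread shared with the other stages: 0 members were called with the E7.0 embryos alone, 1 without embryo 2, and 3 with no replicate block. With libraries scaled to an equal median, genes called higher and lower went from 194 and 144 to 180 and 214.
Along P at E7.0, 0 of 6 members passed in limma (threshold 0.05), where 1.68% of genes were called, and 4 had an unadjusted p under 0.05, as did 1020 of 11628 genes. Wnt3 had a slope of 2.23 ± 0.61 (adjusted p = 0.0788) and Wnt5a one of 2.51 ± 0.69 (adjusted p = 0.0837). The ligands peaked at different heights in embryo 2. Its highest Wnt3a library was section 3, at 22 FPKM, and its highest Wnt8a library section 4, at 26.9 FPKM. Wnt3, Wnt5b and Wnt5a were highest in section 11, the most proximal, at 31.9, 21.5 and 13.6 FPKM. The L libraries held means of 4.6 and 1.24 FPKM of Wnt3 in embryos 1 and 2, and did not pass 0.191 FPKM of Wnt3a. The mean of embryo 1 rests mainly on section 9, at 13.4 FPKM, and the median of its 3 L libraries was 0.374 FPKM. The R libraries held Wnt3 means of 4.23 and 1.02 FPKM, and did not pass 0.779 FPKM of Wnt3a.

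At E7.5 Wnt3a had the highest mean level of the 6 in P. It had 50.3, 20.5, 29.5 and 27.9 FPKM in P of embryos 3 to 6 and 2.2, 0.556, 1.5, 0, 0 and 0.0501 FPKM in A of embryos 1 to 6, and these groups did not overlap (P of embryos 1 and 2 was not analysed here). Each of the 40 P libraries held at least 8.15 FPKM of Wnt3a. Within sections it was higher in P by 4.49 ± 0.23 (adjusted p = 4.62e-10; 4 of 4 embryos). Wnt8a had 42.9, 10.8, 27.6 and 18.3 FPKM in P of embryos 3 to 6 and 9.36, 14.5, 2.83, 0, 0.724 and 0.174 FPKM in A of embryos 1 to 6. Its groups overlapped as means of FPKM, since A of embryo 2 lay above P of embryo 4, but not as means of log2 values. Within sections Wnt8a was higher in P by 4.07 ± 0.25 (adjusted p = 5.23e-09 in limma, 4 of 4 embryos). Wnt5b had 28.4, 10.1, 20.7 and 17.8 FPKM in P of embryos 3 to 6 and 4.29, 3.09, 2.46, 1.02, 0.0658 and 0.977 FPKM in A of embryos 1 to 6, with no overlap and a difference of 3.27 ± 0.26 (adjusted p = 1.04e-07; 4 of 4 embryos).
The other 3 were lower in level. Wnt3 had 6.82, 2.4, 4.03 and 13.3 FPKM in P of embryos 3 to 6 and 0.326, 0.138, 0.571, 0.143, 0 and 0.306 FPKM in A of embryos 1 to 6, with no overlap and a difference of 2.24 ± 0.31 (adjusted p = 8.19e-05; 4 of 4 embryos). Wnt5a had 3.48, 2.3, 4.13 and 9.45 FPKM in P of embryos 3 to 6 and 1.55, 2.18, 1.51, 0.768, 1.22 and 1.11 FPKM in A of embryos 1 to 6, with no overlap and a difference of 1.30 ± 0.20 (adjusted p = 0.000272; 4 of 4 embryos). Wnt2b had 1.87, 1.05, 1.87 and 2.12 FPKM in P, 0 to 0.46 FPKM in A and a difference of 0.85 ± 0.14 (adjusted p = 0.000376; 4 of 4 embryos). All 6 members were called, where 10.5% of genes were called higher and 3.46% lower, and their median was 2.76 against 0.15 over all genes. With libraries scaled to an equal sum, genes called higher and lower went from 1201 and 397 to 732 and 587, and 6 members were called. The paired sections numbered 10 in embryo 3 and 3 in each of embryos 4, 5 and 6. All 6 were called without any 1 embryo, and 3 with the deeper embryos alone, where this difference rests on embryo 3. Summed visceral endoderm markers were higher in A than in P of the same embryo, as medians over libraries. The sums were 138 to 476 FPKM in A and 108 to 282 FPKM in P. Ttr, one of these markers, did not follow the sum. Its median was 0 in A of embryos 3 to 6 and 0.279 to 1.86 FPKM in P. Within sections Ttr differed between P and A by 0.92 ± 0.31 (adjusted p = 0.0579 in limma). The part of these markers in the result was not tested.

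From E6.5 to E7.5 the difference between P and A grew for 4 members. Wnt3a changed by 4.11 ± 0.29 (adjusted p = 1.18e-07), Wnt8a by 2.56 ± 0.33 (8.51e-05), Wnt5b by 2.04 ± 0.33 (0.00106) and Wnt5a by 1.32 ± 0.26 (0.00582), beside 3.06% of genes called higher. For Wnt3 the change was 0.68 ± 0.40 (adjusted p = 0.414) and for Wnt2b 0.49 ± 0.18 (adjusted p = 0.147). The Wnt5a call was lost with no replicate block (adjusted p = 0.093) and at a pseudocount of 0.1 (0.0558), and with the deeper embryos left out or alone 1 member was called. Genes called higher and lower went from 351 and 108 to 284 and 169 with an equal sum.
Wnt3 and Wnt3a exchanged rank in P. The log2 level of Wnt3a minus that of Wnt3 lay between -3.01 and -1.78 in the 6 embryos of E6.5 and between 1.03 and 2.71 in the 4 of E7.5. The groups did not overlap, and they differed by 4.58 (exact permutation test over embryos, two-sided, p = 0.00476, the smallest it can give; adjusted p = 0.019 over 4 exact tests). Of the summed FPKM of the 6 members in P, Wnt3 made up 45.9 ± 4.94% (SD, n = 6) at E6.5, 35.3 ± 7.64% (n = 2) at E7.0 and 7.45 ± 5.04% (n = 4) at E7.5. Wnt3a made up 2.41 ± 0.898%, 11.7 ± 7.48% and 36.5 ± 5.32%. The sum itself was 21.1 ± 6.4, 44.8 ± 36.8 and 89.4 ± 35.4 FPKM. Wnt8a took 21.4 ± 4.39%, 18.6 ± 0.785% and 26.7 ± 5.86% of it, and Wnt5b 24 ± 7.44%, 21 ± 1.99% and 21.5 ± 1.49%.

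The level in P was compared between stages after each library had been scaled to a sum of 1000000. From E6.0 to E6.5, Wnt3 rose by 3.12 ± 0.46 (adjusted p = 0.000951) and Wnt8a by 2.50 ± 0.45 (adjusted p = 0.00882), beside 0.206% of 11628 genes called higher, and 0 members passed without E6.0 embryo 1. The median of all genes was -0.12, and 0.42 with an equal median. From E6.5 to E7.0, Wnt3a rose by 2.30 ± 0.47 (adjusted p = 0.0152) and Wnt5a by 1.73 ± 0.42 (adjusted p = 0.0455), beside 0.757% called higher. Without E7.0 embryo 2 the differences were 0.97 for Wnt3a and 0.94 for Wnt5a, and neither passed. Neither passed with FPKM as deposited or with an equal median, and Wnt5a did not pass without any 1 of the 6 E6.5 embryos (adjusted p = 0.0546 to 0.0964). From E7.0 to E7.5, Wnt3a rose by 3.14 ± 0.50 (adjusted p = 0.00179), beside 0.542% called higher, and did not pass without E7.0 embryo 1 (adjusted p = 0.364). Wnt3 differed by -0.95 ± 0.49 (adjusted p = 1) over that interval. Wnt8a, at 1.89 ± 0.48 (adjusted p = 0.0763), gained a call without E7.0 embryo 2 or E7.5 embryo 6. Stage cannot be told apart from the embryos, their libraries and their depth.

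Along P at E7.5, 0 of 6 members passed in limma (threshold 0.05), where 1.03% of genes were called, and 2 had an unadjusted p under 0.05, as did 2239 of 11628 genes. The slope was 0.24 ± 0.35 (adjusted p = 0.756) for Wnt3a and 0.63 ± 0.43 (adjusted p = 0.437) for Wnt3. Wnt5a and Wnt5b had slopes of 1.64 ± 0.49 (adjusted p = 0.105; 4 of 4 embryos) and 1.63 ± 0.47 (adjusted p = 0.0955; 4 of 4 embryos). Fitted on the E7.5 embryos alone in limma, these 2 were called (adjusted p = 0.0123 and 0.0235). The share of all genes called in that fit is not given here. Genes called higher and lower went from 78 and 42 to 17 and 40 with an equal sum.

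At the distal tip of E7.5, A libraries held Wnt3a, which was at or near 0 over most of the same side higher up. In embryos 1, 2 and 3 the section 1 library of A held Wnt3a at 10.3, 4.31 and 11.5 FPKM, while the median over the A sections was 0.181, 0.0443 and 0.0989 FPKM. Wnt5b was 25.7, 15.2 and 13.9 FPKM in section 1 of the same embryos, with medians of 2.21, 1.7 and 1.23 FPKM. The same 3 libraries held T at 1216, 238 and 299 FPKM and Noto, a gene of the node and notochord, at 674, 183 and 107 FPKM. All 3 embryos thus had high Wnt3a, Wnt5b, T and Noto in the same library. Wnt8a reached further up: its values in section 1 were 15.9, 59.5 and 1.19 FPKM, in section 2 58.8, 44.6 and 13.2 FPKM and in section 3 8.72, 11.8 and 9.74 FPKM. Noto in section 2 was 1.8, 0.94 and 44.5 FPKM. The A libraries of embryos 4, 5 and 6 begin at section 3, where Wnt8a was 0, 2.17 and 0.523 FPKM. The part of node cells in these values of single libraries was not tested.

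Embryo 3 of E7.5 was cut into 2 lateral positions on each side, of which L1 and R1 were read as nearer to A and L2 and R2 as nearer to P. Over the 7 sections with both, Wnt3a ran from 6.52 to 38.1 FPKM in L2 (median 8.74) and from 0.455 to 6.13 FPKM in R2 (median 1.52), so the lowest L2 library lay above the highest R2 library. Wnt8a had medians of 33.2 and 12.3 FPKM and was higher in L2 in 7 of 7 sections. Wnt5a, with medians of 3.47 and 1.93 FPKM, was higher in L2 in 7 of 7. Most ligands were thus higher on the left of this embryo. Wnt5b was higher in L2 in 6 of 7 sections, Wnt3 in 5 and Wnt2b in 4. In the first pair, Wnt8a had medians of 4.92 FPKM in L1 and 1.65 FPKM in R1 and was higher in L1 in 7 of 7 sections, while Wnt3a had 0.0882 and 0.0872 FPKM and Wnt3 was higher in L1 in 2 of 7. T, as a mark of the streak, had medians of 40 FPKM in L2 and 8.71 FPKM in R2, and was higher in L2 in 4 of 7 sections. Pou5f1, an epiblast gene, had 219 and 204 FPKM. The median of Wnt8a was 0.83 FPKM in A and 43.9 FPKM in P of this embryo. Sections of 1 embryo are not replicates, so no test was made, and whether the left and right pieces lay equally far from the streak was not tested.

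**Figure D3:**
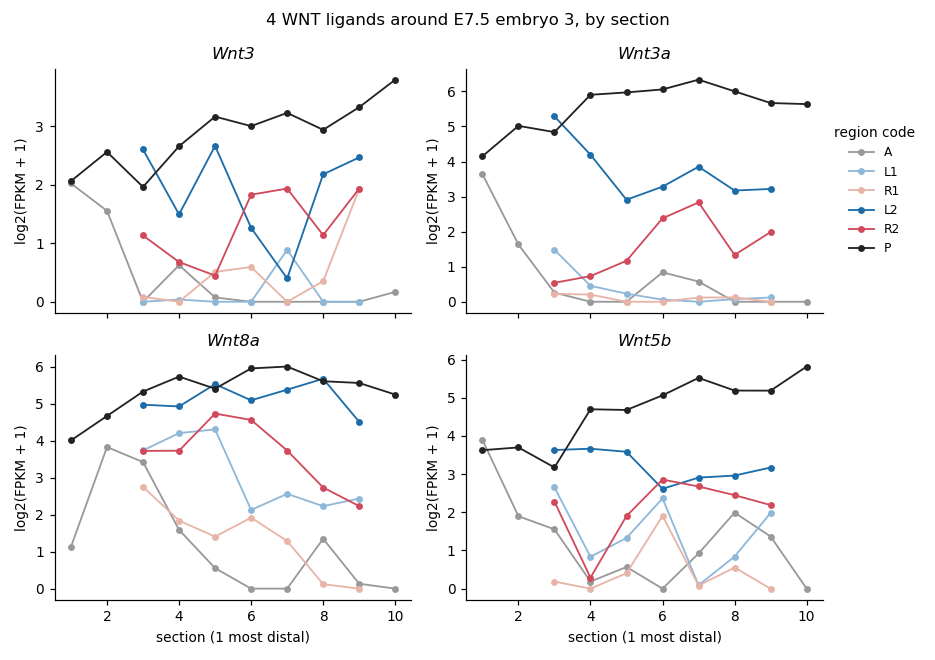
Level of Wnt3, Wnt3a, Wnt8a and Wnt5b around E7.5 embryo 3, as log2(FPKM + 1) by section from distal (1) to proximal, with a line per region code. For Wnt3a the L2 line stays above the R2 line in all 7 shared sections, and the A line is highest in section 1.

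In mesoderm most ligands were lower than in the adjacent P libraries, and Wnt5a was higher. Over E7.0 and E7.5 (4 embryos), Wnt8a was lower by 3.06 ± 0.19 (adjusted p = 0.000255), Wnt3a by 2.91 ± 0.30 (0.00144), Wnt5b by 2.01 ± 0.15 (0.000478) and Wnt3 by 1.34 ± 0.15 (0.00182), each in 4 of 4 embryos. Wnt5a was higher by 0.60 ± 0.10 (adjusted p = 0.00443; 4 of 4 embryos). Wnt2b did not pass, at -0.22 ± 0.14 (adjusted p = 0.238). Much of the transcriptome moved in this comparison: 39.8% of 9882 genes were called lower and 3.84% higher. The median was -1.68 over the members and -0.24 over all genes, and the latter was -0.04 with an equal median, where 651 genes were called lower instead of 3934. T, Mixl1 and Pou5f1 were lower in mesoderm by 3.16 ± 0.11, 3.33 ± 0.15 and 1.77 ± 0.08. Ttr was higher in mesoderm by 1.74 ± 0.32 (adjusted p = 0.00634). As embryo means, the 11 visceral endoderm markers summed to 120.4 to 559 FPKM in M and 117 to 192 FPKM in P of E7.0, and to 295 to 436 FPKM in MA, 142 to 222 FPKM in MP and 144 to 324 FPKM in P of E7.5, with none of the 11 at 0 in a whole group. The 8 markers of maternal decidua and blood found in the tables (of 10) summed to 358 to 656 FPKM in M and 118 to 127 FPKM in P of E7.0, where Prl3c1 was at 0 in P. At E7.5 they summed to 656 to 1129 FPKM in MA, 116 to 1285 FPKM in MP and 44.9 to 965 FPKM in P. The part of both lists in the result was not tested. The ligand values have 2 residual degrees of freedom, and with no replicate block 3 members were called, without Wnt3 (adjusted p = 0.133) and Wnt5a (0.972).
Wnt5a had its highest mean level in MP of E7.5, with 11 FPKM in embryo 5 and 15.8 FPKM in embryo 6. M of E7.0 followed with 4.42 and 13.7 FPKM, then MA of E7.5 with 2.57 and 9.73 FPKM. Neighbours in this order did not differ by more than the larger of their SDs. Within E7.5 mesoderm, 5 of 6 members were called higher in MP than in MA, beside 1.63% of 9322 genes called higher. They were Wnt3a (1.45 ± 0.23), Wnt5b (1.31 ± 0.22), Wnt5a (1.16 ± 0.24), Wnt8a (1.05 ± 0.23) and Wnt3 (0.86 ± 0.21), with adjusted p = 2.66e-08, 2.07e-07, 9.3e-05, 0.000205 and 0.00286. These p-values come from 2 embryos and 1 residual degree of freedom, with the spread borrowed from other genes, and 0 members passed with an equal sum. Wnt2b did not pass, at 0.43 ± 0.22 (adjusted p = 0.624). T, Mixl1 and Pou5f1 were also higher in MP, by 3.78 ± 0.24, 3.51 ± 0.22 and 1.26 ± 0.24. The 6 epiblast markers summed to 131 to 219 FPKM in MP and 83.3 to 217 FPKM in MA as embryo means, and their part in the result was not tested.
Along the mesoderm, Wnt5a and Wnt3 rose towards the proximal end by 1.60 ± 0.45 and 1.27 ± 0.39 (adjusted p = 0.022 and 0.0408), while Wnt3a and Wnt8a fell by 1.32 ± 0.36 and 1.24 ± 0.34 (0.026 and 0.0157). Wnt3a was below 0 in 3 of 4 embryos and Wnt8a in 4 of 4 embryos, and without E7.0 embryo 2 their slopes were -0.68 and -0.73. The 4 of 6 members called stand beside 3.09% of genes called higher and 0.815% lower. With a pseudocount of 0.1, an equal sum or no filter 0 members passed. Without E7.0 embryo 1, E7.0 embryo 2, E7.5 embryo 5 or E7.5 embryo 6 the count was 0, 2, 1 and 0.

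**Figure D4:**
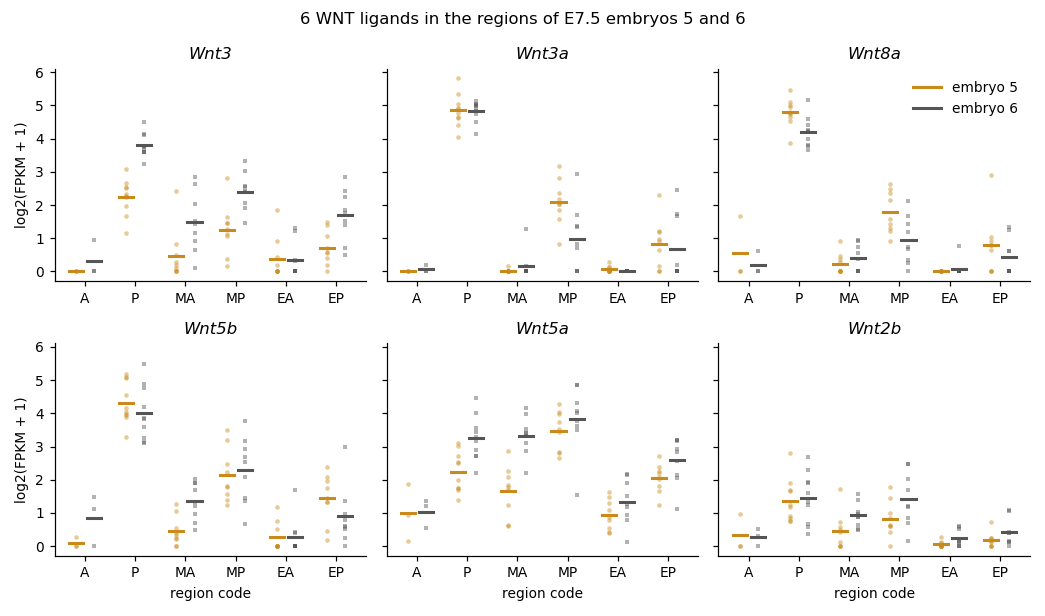
Level of the 6 WNT ligands in 6 regions of E7.5 embryos 5 and 6, as log2(FPKM + 1), where each faint point is a library and each bar the mean of 1 embryo. The P bars are the highest for Wnt3, Wnt3a, Wnt8a, Wnt5b and Wnt2b, and the MP bars for Wnt5a, in both embryos. The P bars include section 1, which MP lacks. In embryo 6 that P library held 2.85 FPKM of Wnt2b and was led by 1 small RNA.

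In endoderm, Wnt3a was listed at 0 in all 14 EA and all 14 EP libraries of E6.5 and in all 20 EA libraries of E7.0. Over E6.5, E7.0 and E7.5 (6 embryos), Wnt8a was lower in endoderm than in epiblast by 1.26 ± 0.16 (adjusted p = 3.22e-06), Wnt5b by 1.19 ± 0.15 (2.39e-06), Wnt3a by 1.16 ± 0.16 (6.91e-06) and Wnt3 by 0.55 ± 0.15 (0.00429), each in 6 of 6 embryos. Wnt5a did not pass, at -0.20 ± 0.15 (adjusted p = 0.239), and Wnt2b was below the filter. The count of 4 of 5 stands beside 58% of 10639 genes called lower, a share of similar size, with a median of -0.46 over all genes and -1.16 over the tested members. The Wnt3 call was lost with an equal sum (adjusted p = 0.0577) and with no replicate block (0.133). Markers of maternal decidua and blood, 8 of 10 in the tables, had higher mean sums in endoderm than in epiblast at each of these stages. As embryo means they summed to 219 to 281 FPKM in EA and 101 to 299 FPKM in EP of E6.5, against 5.47 to 106 FPKM in A and 6.81 to 173 FPKM in P. At E7.0 the ranges were 2266 to 11209.6 FPKM in EA and 3943 to 13034 FPKM in EP, against 130.2 to 193 FPKM in A and 118 to 127 FPKM in P. At E7.5 they were 1482 to 6642 FPKM in EA and 889 to 12613 FPKM in EP, against 40.3 to 1104 FPKM in A and 44.9 to 965 FPKM in P. Alox15 was at 0 in endoderm of E6.5 and E7.0 and in A of E7.0, and Prl3c1 in EP of E6.5 and in A and P of E7.0. The part of these markers in the result was not tested.
In posterior endoderm, Wnt3 had the highest mean of the 6 at E6.5 and E7.0 (6.63 and 3.26 FPKM), and Wnt5a at E7.5 (4.4 FPKM, against 1.68 FPKM of Wnt3). At E7.0 this order did not hold in embryo 2, with 4.06 FPKM of Wnt5a and 3.99 FPKM of Wnt3. In EP of E6.5 Wnt3 had 2.44 FPKM in embryo 5 and 10.8 FPKM in embryo 6, against 0.645 and 2.38 FPKM in EA. The most proximal EP library of embryo 6 held 34.2 FPKM of Wnt3, the highest value among the mapped libraries (the table of this embryo is the one named for E6.0), beside Ttr at 1172, Mixl1 at 68.7, T at 56.5 and Pou5f1 at 43.3 FPKM. Over the 3 stages Wnt3 was higher in EP than in EA by 0.95 ± 0.20 (adjusted p = 0.0424; 6 of 6 embryos), beside 0.887% of 10147 genes called higher. Wnt5a was the only other member past the filter, at 0.66 ± 0.19 (adjusted p = 0.135), and it gained a call without E6.5 embryo 5 (0.0262). T and Mixl1 were higher in EP by 2.03 ± 0.21 and 2.60 ± 0.25, and Pou5f1 differed by 0.73 ± 0.26 (adjusted p = 0.238). The Wnt3 call was lost at a pseudocount of 0.1 (adjusted p = 0.0941), with an equal sum (0.1), with no replicate block (0.0908), and without E6.5 embryo 6, E7.0 embryo 2 or E7.5 embryo 6 (0.11 to 0.349). Genes called higher and lower went from 90 and 62 to 37 and 47 with an equal sum.
Along EP, Wnt3 rose by 1.72 ± 0.56 (adjusted p = 0.047), beside 10.9% of 10224 genes called higher, with values from -0.84 to 4.86 in single embryos. The slope was 1.02 without E6.5 embryo 6 and 0.96 without E7.0 embryo 1, and the call was lost without these or E7.5 embryo 5 or 6 (adjusted p = 0.0529 to 0.429). In EP of E7.0 embryo 2 the most distal library held Wnt3a at 9.39 and Wnt5b at 6.46 FPKM. That library also held T at 122, Pou5f1 at 179 and Ttr at 29.2 FPKM. In section 11 of the same embryo Wnt3a was listed at 0, and T was 10.3, Pou5f1 4.23 and Ttr 1793 FPKM. The part of epiblast or streak RNA in these EP values was not tested.

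The genes whose log2(FPKM + 1) values were most like those of each member were ranked by Pearson's r over all 473 libraries, among 11187 genes. They are descriptions across libraries that share embryos, regions and depth. For Wnt3 they were Mixl1 (0.757), Evx1 (0.716), 5730457N03Rik (0.677), Slpi (0.673) and Mesp1 (0.635), of which Mixl1, Evx1 and Mesp1 are known genes of the streak and early mesoderm. For Wnt3a they were Hes7 (0.878), Cdx1 (0.871), Alcam (0.823), Pik3c2b (0.823) and Tbx6 (0.801). For Wnt8a they were Nkx1-2 (0.824), Apln (0.798), Cdx1 (0.796), Wnt3a (0.794) and Cxx1c (0.786). Cdx1, a regulator of posterior identity, stands in both of the last lists. For Wnt5b they were Wnt3a (0.762), Fgf17 (0.737), Wnt8a (0.736), Pik3c2b (0.721) and Cxx1c (0.72). For Wnt5a they were Pcdh19 (0.757), Fn1 (0.748), Rasgrp3 (0.72), Epha4 (0.716) and Dll1 (0.715), and for Wnt2b Chst7 (0.697), Gas1 (0.692), Dll1 (0.654), Dll3 (0.645) and Tbx6 (0.638), with the Notch ligand Dll1 in both. Between members, r was 0.794 for Wnt3a with Wnt8a, 0.762 for Wnt3a with Wnt5b and 0.736 for Wnt8a with Wnt5b. Wnt3 had r = 0.449 with Wnt3a and 0.586 with Wnt5b, and Wnt5a had 0.315 with Wnt8a.

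The genes that act around the ligands were read from lists chosen with the ligands, and their counts stand beside the same shares of all genes as above. Porcn adds the lipid to WNT proteins and Wls carries them to the cell surface. Both were higher in P at E7.0, by 1.36 ± 0.29 and 1.26 ± 0.26 (adjusted p = 0.013 and 0.0113), and both were called at E7.5. At E6.5 Porcn was called, at 0.83 ± 0.17 (adjusted p = 0.0273), and Wls, at 0.67 ± 0.15 (adjusted p = 0.0532), was not. Wls rose along P at E6.5 by 2.53 ± 0.35 (adjusted p = 0.00016).
Of 16 receptors and co-receptors 12 were tested, and at E7.5 4 were higher and 4 lower in P. Fzd10 (2.36 ± 0.20) and Ptk7 (1.78 ± 0.16), a co-receptor in polarity signalling, were higher (adjusted p = 1.85e-07 and 4.68e-07). Fzd7 (-1.55 ± 0.18) and Fzd5 (-1.21 ± 0.17) were lower (adjusted p = 9.58e-06 and 0.000107). Of 5 R-spondins and receptor turnover genes tested, 2 were higher and 1 lower at E7.5. Among them Rspo3, which raises receptor levels at the cell surface, was higher in P by 3.92 ± 0.29 (adjusted p = 4.4e-08).
Of 12 tested target genes of β-catenin, 4 were higher in P at E6.5, 7 at E7.0 and 12 at E7.5, and 0 were lower at each of these stages in limma. At E7.5 T, Cdx1, Cdx2 and Tbx6 differed by 6.38 ± 0.37, 5.12 ± 0.23, 4.27 ± 0.23 and 4.54 ± 0.30 (adjusted p = 2.93e-09, 1.46e-10, 1.21e-09 and 1.09e-08). T and Tbx6 also mark the streak and its mesoderm. In mesoderm 11 of 12 targets were lower than in P, beside 39.8% of 9882 genes called lower in that comparison. Of 13 core pathway genes 0 were called at E6.5 and E7.0, and 1 at E7.5: Tcf7l1, a repressor of targets, was lower in P by 1.74 ± 0.20 (adjusted p = 6.7e-06).
Of 13 secreted antagonists 8 were tested, with 3 higher and 3 lower in P at E7.5. Frzb (4.80 ± 0.29), Notum (2.48 ± 0.20) and Dkk1 (2.26 ± 0.35) were higher, and Sfrp1 (-3.50 ± 0.23) was lower (adjusted p = 4.32e-09, 1.4e-07, 0.000245 and 9.75e-09). Of 5 tested planar cell polarity genes, 1 was called higher in P at E6.5, 2 at E7.0 and 2 at E7.5, and 0 were lower. Their median difference at E7.5 was 0.04, against 0.15 over all genes. Vangl1 was higher at E6.5, E7.0 and E7.5, by 1.10 ± 0.15, 2.21 ± 0.26 and 2.30 ± 0.19 (adjusted p = 0.00118, 0.000125 and 1.33e-07). Vangl2 (-0.16 ± 0.19) and Daam1 (0.04 ± 0.26) did not pass at E7.5 in limma (adjusted p = 0.623 and 0.944). Of the 13 other WNT ligands 3 were tested, and Wnt6 (1.22 ± 0.22) and Wnt2 (0.99 ± 0.23) were higher in P at E7.5 (adjusted p = 0.000874 and 0.00673).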

How the data were processed

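Geo-seq libraries of C57BL/6 mouse embryos were measured at 5 stages from E5.5 to E7.5. Per the labels' protocols, frozen embryos were sectioned, cells were cut out by laser, RNA was taken up in guanidine isothiocyanate and libraries were built with Nextera XT. The deposited values are FPKM made by the authors, with TopHat2 2.0.8b and Cufflinks 2.1.1 on mm10 per the submitters' processing notes; annotation and options are not given in the sources used here. FPKM were used as deposited, so no count test was possible and depth is known only roughly.

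A column was tied to a sample where embryo, section and region code were the same. The match failed for 113 of 586 samples and for 111 of 584 columns, which were left out, among them P of E7.5 embryos 1 and 2. No 2 libraries were identical. Differences of log2(FPKM + 1) between regions were taken within section and embryo and averaged, giving 1 value per embryo; a pseudocount of 1 understates changes of low genes. Slopes used sections scaled from 0 (distal) to 1 (proximal), with at least 3 sections. P levels between stages used libraries scaled to a sum of 1000000. Genes with a mean of at least 1 FPKM in at least 1 stage were fitted in limma 3.58.1 (R 4.3.3; empirical Bayes, trend and robust), all stages sharing a spread, with Benjamini-Hochberg adjustment and a threshold of 0.05. The script was tested on simulated data. Pairing comes from the shared embryo: deviations of A from its stage mean correlated with those of P of the same embryo by 0.43 to 0.87 across genes, and 10 of 10 embryos were closest to their own P. Balances between ligands were tested by exact permutation over embryos in Python 3.11.15 with scipy 1.17.1. Named genes are the 6 members, the 5 genes most correlated with each, up to 4 genes of each pathway list with the smallest p between P and A, and a few check genes; E6.0 Wnt5a, the E7.5 distal libraries and Noto were chosen after their values were seen. Members and lists were chosen with earlier results of these data known. Alternatives were another pseudocount, filters, scalings, no replicate block, each stage alone, leaving out each embryo, and 4 added after seeing the data: without section 1, without libraries led by 1 small RNA, without the deeper embryos, and with these alone.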

Additional observations from a re-analysis of the deposited data

Results flagged for a closer look

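In 48 groups of 4 or more embryos, 3 held an embryo far from the others, and chance gives about 1 in 20. For Wnt8a, P minus A at E7.5 was 3.73 in embryo 4 and 4.15 to 4.21 in the other embryos. The Wnt3 level in P at E6.5, on the scaled log2 axis, was 2.25 in embryo 1 and 3.55 to 4.01 in the others. The Wnt3a slope in A at E6.5 was 0.892 in embryo 2 and -0.156 to 0.0846 in the others.

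The difference between P and A itself changed from E6.5 to E7.5 for 4 members, by 4.11 for Wnt3a, 2.56 for Wnt8a, 2.04 for Wnt5b and 1.32 for Wnt5a, with adjusted p = 1.18e-07, 8.51e-05, 0.00106 and 0.00582 in limma. The Wnt5a change did not pass with no replicate block (adjusted p = 0.093) or at a pseudocount of 0.1 (adjusted p = 0.0558).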

How the results depend on the processing

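Of 320 alternatives of the counts of members called and of the exact tests, 230 kept their size or side, 74 moved a count by over 1.5 times, 16 lost a call and 0 reversed. Of 1513 alternatives of single members, 1366 kept their side, 130 lost a call, 17 gained one and 0 called values reversed. The cause of each change below was not tested, except that fewer embryos or genes entered where the setting says so. Low levels, near the worth of a few reads, and 2 embryos per stage at E5.5, E6.0 and E7.0 limit the precision.

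For P minus A at E6.5, 5 members were called with the stage alone and 0 without the deeper embryos or with these alone. At E7.0 the count was 3 with no replicate block and 0 with the stage alone, and at E7.5 it was 3 with the deeper embryos alone. For the change from E6.5 to E7.5 it was 1 with the deeper embryos left out or alone. For EP minus EA it was 0 with an equal median, an equal sum, a filter at 5 FPKM, no filter, no replicate block and a pseudocount of 0.1. Mesoderm minus P had 3 with no replicate block. MP minus MA had 2 with an equal median, 0 with an equal sum, 1 with a filter at 5 FPKM and 3 with no replicate block. The replicate block, here the pairing within embryos, changed no other count by over 1.5 times. For fits of a stage alone, here and below, the share of all genes called is not given.

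For the slope in P at E6.5 the count was 5 with the stage alone and 0 without the deeper embryos. At E7.0 it was 1 with an equal median or the stage alone, and at E7.5 it was 2 with the stage alone. The slope in A had 0 with an equal sum, a filter at 5 FPKM, no filter, a pseudocount of 0.1 and without the deeper embryos. The slope in mesoderm had 0 with an equal sum, no filter and a pseudocount of 0.1, and 1 with a filter at 5 FPKM. The slope in EP had 0 with no filter. The Wnt3 minus Wnt8a slope was 0.102 at a pseudocount of 0.1 and 0.719 with an equal sum, and Wnt3 minus Wnt3a was 1.38 and 2.12; neither passed there.

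For the P level from E6.0 to E6.5 the count was 1 with FPKM as deposited or without the deeper embryos. From E6.5 to E7.0 it was 0 with FPKM as deposited, an equal median, the deeper embryos alone or left out, and 1 with a filter at 5 FPKM, no filter, a pseudocount of 0.1 or without libraries led by 1 small RNA. From E7.0 to E7.5 it was 0 with the stages alone or without the deeper embryos, and 2 without section 1.

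Leaving out 1 embryo gave 2 to 3 members for P minus A at E6.5, 1 to 5 at E7.0, 0 to 2 for EP minus EA, 0 to 1 for the slopes in A and in EP, 0 to 2 for the slope in mesoderm and 0 to 2 for each change of the P level. It gave 0.856 to 1.01 for the Wnt3 minus Wnt8a slope and 2.02 to 2.45 for Wnt3 minus Wnt3a, where 5 embryos allow no exact permutation p under 0.0625. MP minus MA has no residual degrees of freedom without 1 of its 2 embryos, and endoderm and mesoderm could not be fitted with the deeper embryos alone.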
